A study of Mus musculus with 8 samples.

Results

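Bcl11a and Bcl11b encode related zinc finger transcription factors. The accessible chromatin around both genes was followed in B3, a line of mouse pre-B cells, during the first hours after nuclear entry of the transcription factor Ikaros (IKZF1). The members were all ATAC-seq peaks of 8 lists whose summit lay in the body of either gene or within 100 kb of it. Merging peaks that overlapped gave 61 regions out of 174718 in the whole series, 43 at Bcl11a and 18 at Bcl11b. The presence of a peak chose the members, so regions were selected on that measured value, and presence is described and not tested.

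All libraries came from B3 cells transduced with Ikaros-ERt2, in which Ikaros is fused to part of the estrogen receptor, and its ligand 4-hydroxytamoxifen (4-OHT) brings the fusion into the nucleus. Per the labels, 2 libraries had no treatment (0 h) and 2 each had 500 nM 4-OHT for 30 min, 1 h and 2 h. The 0 h cells carried the same retroviral construct and no vehicle treatment is given for them, so responses to 4-OHT and to Ikaros cannot be told apart. The labels do not say whether replicates came from separate cultures, and the p-values below measure only the spread between these libraries.

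BCL11A is required for B cell development and is known as the repressor that silences fetal globin genes in red cells. BCL11B is required for commitment to the T lineage. Both bind DNA through C2H2 zinc fingers and carry a short N-terminal motif that binds the corepressor complex NuRD, a feature they share with several other zinc finger factors, and both have been found with the BAF chromatin remodelling complex. ATAC-seq reports where the Tn5 transposase can reach DNA, and in a bulk sample fewer cells with an open site and less opening per cell cannot be told apart.

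The lists held 85903 to 103897 peaks, and the caller's background was 0.26 to 0.405 fragments per base. The median over the peaks of a list was 11 to 14 summit fragments, so a single weak peak is imprecise, and counts of fragments carry counting error besides the spread between libraries. Of 10 B lineage marker genes, 7 had a peak within 1 kb of a start site in all 8 lists. Lck was the sole gene of 8 T lineage markers with a start-site peak in all 8 lists, while Cd3e, Cd3d, Cd8a and Thy1 had none. Of 6 myeloid and 6 erythroid markers, 0 had such a peak in all 8 lists.

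Bcl11a (ENSMUSG00000000861.15) lies at chr11:24078056-24174123 on the plus strand of GRCm38, and Bcl11b (ENSMUSG00000048251.15) at chr12:107910403-108003602 on the minus strand. Regions are named below by the distance of their summit from the first start site of the gene, with positive distances in the direction of transcription. The sequences below are those of 4 regions that the results turn on, read from the GRCm38 reference (RefSeq) on its plus strand around the summit in the first 0 h library. The start-site window, chr11:24077920-24078055, stops at the annotated start of the transcript. The others are chr11:24081016-24081215 in a Bcl11a intron, chr11:24259714-24259913 between genes, and chr12:108041650-108041849 upstream of Bcl11b. Capitals mark the core letters of the Ikaros motif, GGAA or GGGA, and the same words on the other strand, TTCC and TCCC.
Bcl11a start site: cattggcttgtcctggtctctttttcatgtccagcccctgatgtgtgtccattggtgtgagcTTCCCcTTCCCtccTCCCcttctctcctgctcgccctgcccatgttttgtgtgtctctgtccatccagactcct
Bcl11a +3.1 kb: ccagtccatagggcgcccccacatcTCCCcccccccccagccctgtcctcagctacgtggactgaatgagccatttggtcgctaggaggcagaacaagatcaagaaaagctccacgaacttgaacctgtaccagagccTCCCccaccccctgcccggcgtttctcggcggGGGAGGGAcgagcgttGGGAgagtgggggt
Bcl11a +181.8 kb: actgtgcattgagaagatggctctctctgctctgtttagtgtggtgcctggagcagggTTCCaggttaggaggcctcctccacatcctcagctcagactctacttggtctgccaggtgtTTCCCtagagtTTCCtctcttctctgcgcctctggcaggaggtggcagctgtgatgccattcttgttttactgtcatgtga
Bcl11b −38.1 kb: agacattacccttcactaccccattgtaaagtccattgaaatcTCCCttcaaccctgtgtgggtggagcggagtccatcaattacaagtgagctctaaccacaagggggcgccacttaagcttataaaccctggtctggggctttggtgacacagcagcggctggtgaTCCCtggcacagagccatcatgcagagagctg

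These words are frequent, and their presence marks neither a binding site nor a cause. Of all 47875 regions with a peak in all 8 lists, 97.9% held at least 1 word in the 200 bp around the summit, with a median of 4 words, overlapping matches included. The 14 Bcl11a regions with a peak in all 8 lists had a median of 5.5 words and held between 1 and 10. The most were in the +107.0 kb region (10 words) and the fewest in the −28.7 kb region (1 word). The +181.8 kb sequence above held 4 words and the Bcl11b −38.1 kb sequence 2. The longer word GGGAA, or TTCCC on the other strand, was present in 64.3% of the 14 Bcl11a regions and 43.5% of all tested regions. The word for the insulator protein CTCF, searched on both strands, was found in 7.14% of the 14 regions, that is in the −98.5 kb region alone, and in 9.24% of all tested regions.

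Both loci differed in how many of their regions were present in every list. At Bcl11a, 14 of 43 regions had a peak in all 8 lists, 17 in 2 to 7 lists and 12 in 1 list. Of the 14, 6 lay upstream of the gene, 2 in its body and 6 past its end. At Bcl11b 1 of 18 regions had a peak in all 8 lists, at −38.1 kb, upstream of the gene. Across the series 27.4% of regions had a peak in all 8 lists, against 32.6% at Bcl11a and 5.6% at Bcl11b.

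The start sites of both genes differed too. Bcl11a had 4 regions within 1 kb of a start site, 3 of them present in all 8 lists. None of the 8 lists had a peak within 1 kb of a Bcl11b start site, and the nearest peak was in an intron, 4410 bp away. That region, at +4.7 kb, had a peak in 5 lists, with 9 and 7 fragments untreated, none after 30 min, 8 and 11 after 1 h, and 9 in the first 2 h library alone.

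**Figure D1:**
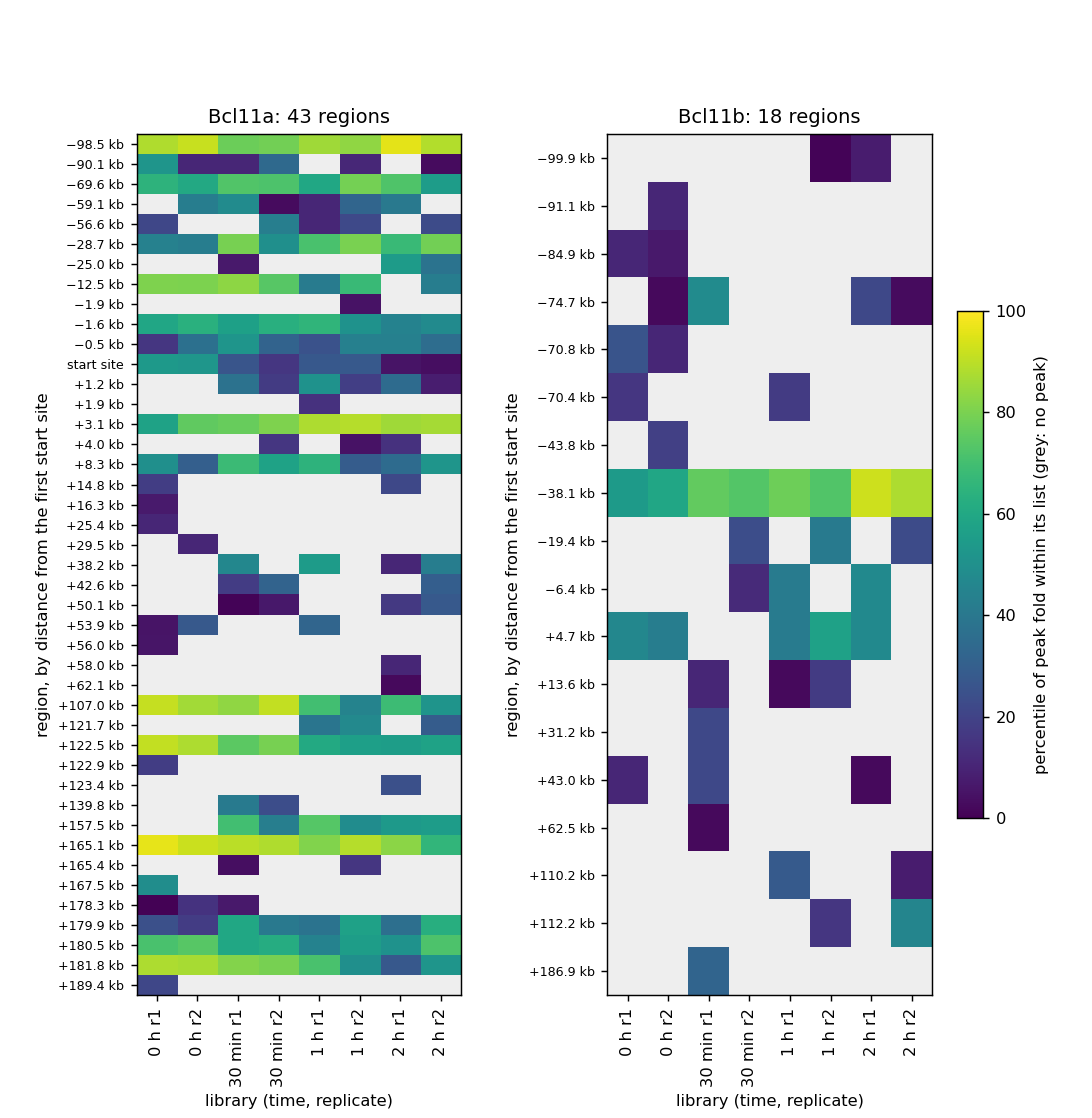
Percentile of peak fold within its list (colour, 0 to 100; grey, no peak) for the 43 Bcl11a regions and the 18 Bcl11b regions in each of the 8 libraries, ordered by distance of the region from the first start site in kb. Past the Bcl11a gene end the +107.0, +122.5 and +181.8 kb regions lose rank over time, while the Bcl11b locus holds 1 strong region, at −38.1 kb, that gains rank.

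Inside the 96.1 kb Bcl11a gene body, peaks past the first introns were weak and variable. The 11 regions between +14.8 and +62.1 kb had a peak in 1 to 4 lists and 4 to 10 fragments at the summit, with percentiles of 0.8 to 54.7. The 17 Bcl11b regions outside the −38.1 kb region resembled these in level, with 3 to 11 fragments and percentiles of 1.1 to 57.1. Replicates often disagreed on these regions, as the map of percentiles by library shows.

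Presence changed at few regions. A region was counted as lost where both 0 h lists and neither 2 h list had a peak, and as gained in the reverse case. At Bcl11a 2 of the 18 regions in both 0 h lists were lost at 2 h, and 5 of the 19 in both 2 h lists were gained, where the shares over the series were 16.6% lost and 20.5% gained. At Bcl11b 2 of 4 regions were lost and 0 of 2 gained. These counts are too small to read against the series, and with lists of equal length 2 rather than 5 Bcl11a regions were gained.

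The lost regions had few fragments or low percentiles. The Bcl11a +53.9 kb region, in an intron, had 5 and 6 fragments at 0 h and 7 in the first 1 h library. The +178.3 kb region had 16 and 15 fragments at 0 h and 13 in the first 30 min library, at percentiles of 0.4, 14.5 and 6.8. The lost Bcl11b regions lay upstream, at −70.8 kb with 7 and 4 fragments and at −84.9 kb with 5 and 4, and no treated library had a peak in either.

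Of the gained Bcl11a regions, the intergenic +157.5 kb region had the highest mean percentile at 2 h (53.6 and 55.4 in the 2 libraries). It had no peak untreated, 14 and 8 fragments after 30 min, 15 and 9 after 1 h, and 10 and 10 after 2 h. All treated libraries thus had a peak there and neither untreated one did. A region in the first Bcl11a intron, at +1.2 kb and 1030 bp from the nearest start site, followed the same pattern, with more fragments, 25 and 18 after 30 min, 26 and 17 after 1 h, and 20 and 13 after 2 h, at percentiles of 34.8 and 7.9 in the 2 h libraries. The gained −25.0 kb region, in an intron of the neighbouring gene A830031A19Rik, had 5 fragments in the first 30 min library and 11 and 8 at 2 h. The gained +38.2 kb region had 9 in the first 30 min library, 10 in the first 1 h library, and 5 and 8 at 2 h. The last gained region, at +50.1 kb, had 4 and 5 fragments after 30 min, none after 1 h, and 6 and 7 at 2 h.

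Strength was compared in the 14 Bcl11a regions and the 1 Bcl11b region with a peak in all 8 lists. Regions were ranked within each library by the fold of their peak over the local background, the ranks were turned into normal scores, and limma was fitted across all 47875 such regions of the series. A call needed a Benjamini-Hochberg adjusted p under 0.01. At 2 h, 3 of the 14 Bcl11a regions were lower than at 0 h and 0 were higher, and the 1 Bcl11b region was higher. Over all tested regions 4.71% were lower and 2.28% higher.

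The second scale was the number of fragments at the summit over the background of the whole library, as log2 with each library centred on its median. On it 6 of the 14 Bcl11a regions were lower at 2 h and 0 were higher, where 9.37% of all tested regions were lower and 5.43% higher. Without an adjustment for multiple tests, 2 Bcl11a regions were higher on ranks and 1 on fragments at p under 0.05, where 17.1% and 20.4% of all tested regions were higher. The median shift was −0.76 over the 14 regions and 0.07 over all tested regions on this scale, and −0.35 and 0.06 on ranks. Before centring, the median of all tested regions rose by 0.22 from 0 h to 2 h, and the Bcl11a calls were again 6 lower and 0 higher. The split of calls over the series moved with the scale, from 2256 lower and 1092 higher on ranks to 1305 (2.73%) and 1199 (2.5%) when regions were ranked among all peaks of a list, where 2 Bcl11a regions were lower and the Bcl11b region was higher.

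Without 1 of the 2 libraries of 0 h or of 2 h, none of the 14 regions passed on ranks. On fragments 4 still passed without the first 0 h, the first 2 h or the second 2 h library, and 5 without the second 0 h library. Each of these fits leaves 1 library at that time point, which is assumed to vary like the other groups, so they rest on the spread within the other time points. The start-site, +122.5 kb and +181.8 kb regions were among them each time, with adjusted p of at most 0.00487, 0.00217 and 0.00192. In 2 against 2 libraries an exact permutation test of a single region cannot go below p = 0.333 (two-sided).

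**Figure D2:**
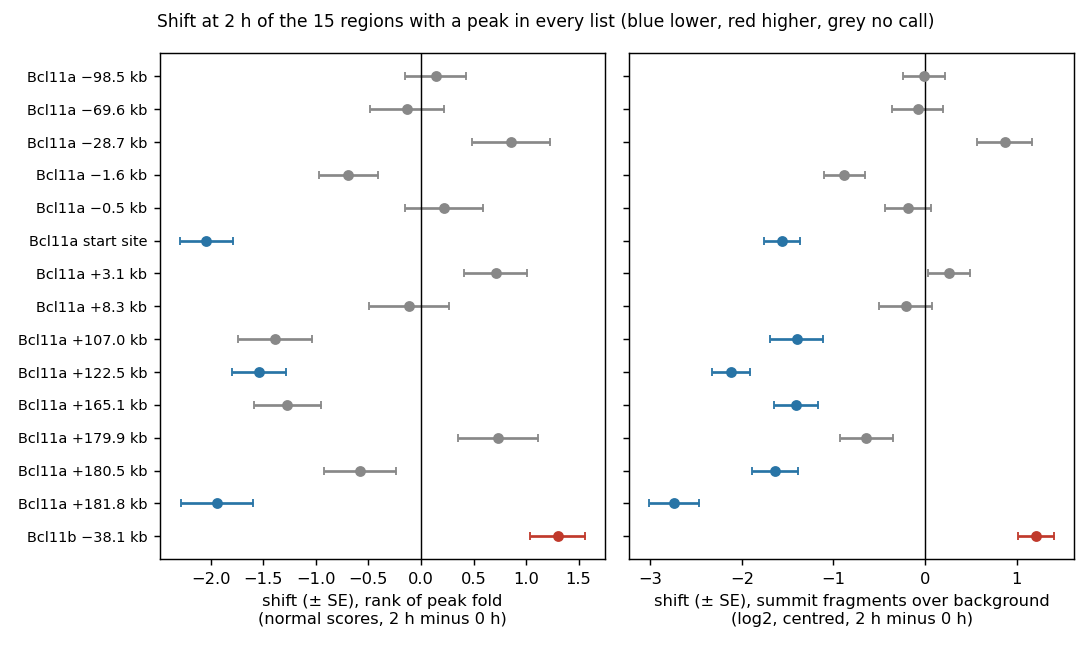
Shift from 0 h to 2 h (± SE from limma, 2 libraries per time point) of the 15 regions with a peak in every list, on ranks of peak fold (left, normal scores) and on summit fragments over library background (right, log2, centred), with calls at adjusted p under 0.01 in blue (lower) or red (higher). The calls lie at the Bcl11a start site, past the gene end and at the Bcl11b −38.1 kb region; the +179.9 kb region has shifts of 0.73 and −0.64 on the 2 scales.

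The region that spans the first Bcl11a start site, chr11:24077953-24078140, was lower in every treated library than in the untreated ones. It had 37 and 26 fragments at its summit untreated, 21 and 17 after 30 min, 19 and 19 after 1 h, and 13 and 11 after 2 h. The libraries of 2 h were lowest. Its percentile in the list was 53.9 and 52.5 untreated and 5.2 and 3.9 after 2 h. Relative to the library background the level was 97.6 ± 3.5 (SD, n = 2) untreated, 53.8 ± 2.7 after 30 min, 56.4 ± 6.4 after 1 h and 36.6 ± 2.7 after 2 h, a 2.66-fold difference between 0 h and 2 h with no overlap of the groups. The shift at 2 h was −2.04 (SE 0.25, limma, adjusted p = 0.00144) on ranks and −1.56 (SE 0.2, adjusted p = 0.000437) on fragments. At 30 min it did not pass (adjusted p = 0.0303 and 0.0276), and at 1 h it passed narrowly on fragments (adjusted p = 0.01 when rounded) and not on ranks (adjusted p = 0.0224). The fall of this start-site peak was known from an earlier look at these data and is not independent evidence.

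None of the other start-site regions passed on either scale at 2 h. The region with the highest percentile at 0 h among them, chr11:24081054-24081234, lies in an intron 384 bp past an internal start site, at +3.1 kb. It had 38 and 40 fragments untreated, 50 and 50 after 30 min, 57 and 58 after 1 h, and 55 and 51 after 2 h. Its percentile was 57.7 and 75.5 untreated and 85.9 and 86.7 after 2 h, without overlap. The shift at 2 h was 0.71 (SE 0.3, limma, adjusted p = 0.13) on ranks and 0.26 (SE 0.23, adjusted p = 0.437) on fragments.

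The −0.5 kb region, 372 bp from the first start site, had 21 and 20 fragments untreated and 23 and 18 after 2 h, and its groups overlapped (shift on ranks 0.22, SE 0.37, limma, adjusted p = 0.708). The remaining start-site region, 716 bp from a start site in the same intron, had a peak with 15 fragments in the first 1 h library alone. Next to these, the −1.6 kb region had 39 and 31 fragments untreated and 22 and 21 after 2 h, with shifts of −0.69 on ranks and −0.88 on fragments (adjusted p = 0.115 and 0.0134). The edge of the −1.6 kb region lies 3 bp from a start site of the lincRNA gene Gm12063. Differences between the regions near the start site were not tested.

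**Figure D3:**
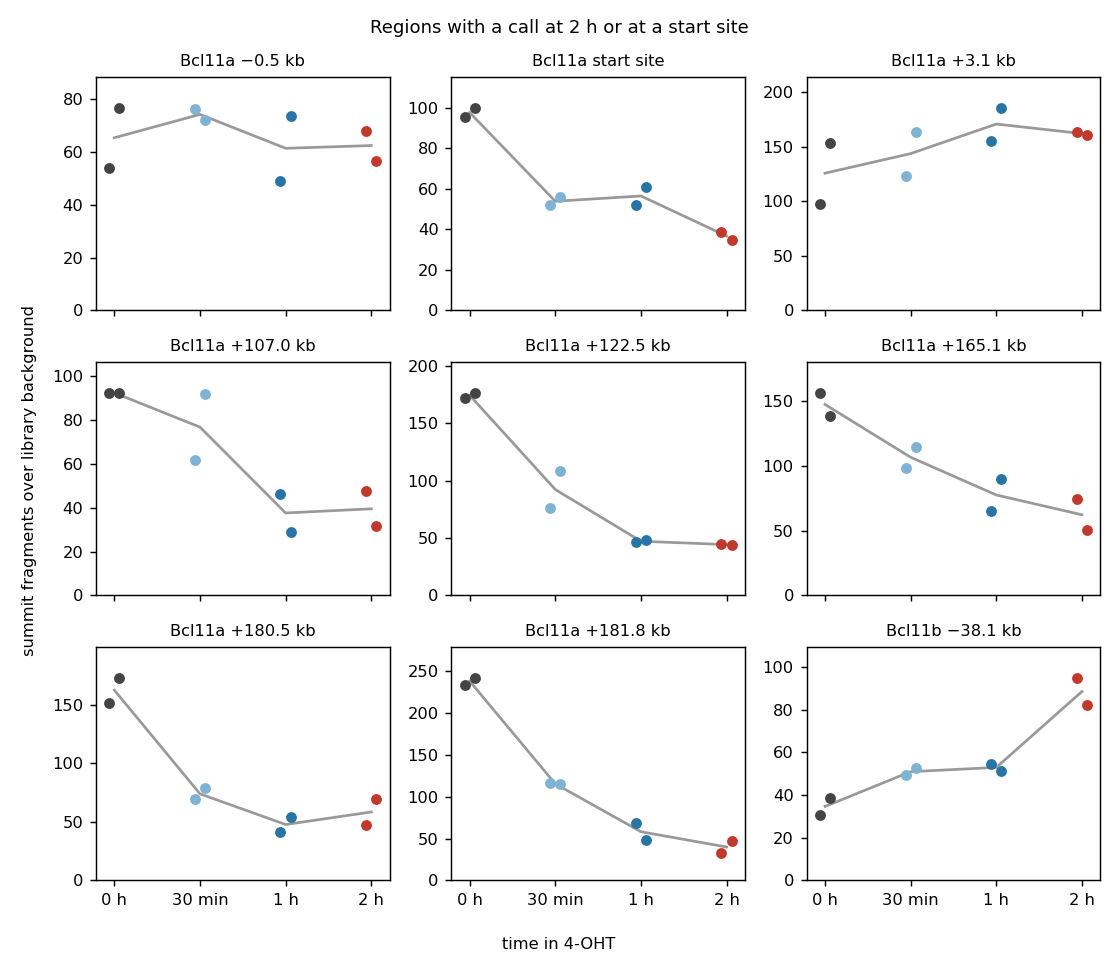
Summit fragments over library background (y axis, from 0; a scale of its own for each panel) at 0 h, 30 min, 1 h and 2 h in 4-OHT (x axis) for the regions called at 2 h on fragments and the Bcl11a start-site regions with a peak in every list; points are single libraries, 2 per time, and lines join their means. The start-site panel falls from 97.6 to 36.6 and the +181.8 kb panel from 238.1 to 40.0, while the +3.1 kb panel goes from 125.8 to 162.0 and the Bcl11b panel from 34.7 to 88.5.

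On fragments the 3 largest falls at 2 h lay past the Bcl11a gene end, in a stretch that holds 2 annotated lincRNA genes, Gm12065 and Gm12066. All 6 regions there had a shift below 0 on fragments, from −0.64 to −2.74, and 5 of them passed. On ranks 2 of the 6 passed and the shifts ran from −1.94 to 0.73. The +179.9, +180.5 and +181.8 kb regions lie close together. Their local backgrounds were 11.01, 11.01 and 10.92 times the library background at 0 h, and 3.33, 3.3 and 3.24 at 2 h. The counts here and above treat them as separate regions, although they may belong to 1 accessible stretch. Of the 8 tested regions upstream and in the gene body, the start-site region was the only one that passed on either scale.

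The +181.8 kb region, chr11:24259663-24260063, 85.7 kb past the gene end and between genes, had the most fragments of any member in both 0 h libraries. It had 91 and 63 fragments untreated, 47 and 35 after 30 min, 25 and 15 after 1 h, and 11 and 15 after 2 h. Every treated library lay below both untreated ones. The level over the library background was 238.1 ± 5.9 (SD, n = 2) at 0 h and 40.0 ± 10.4 at 2 h, which is 5.96-fold lower, and the groups did not overlap. The percentile was 87.6 and 87.0 untreated and 27.5 and 52.2 after 2 h. The shifts were −1.94 (SE 0.34, limma, adjusted p = 0.00476) on ranks and −2.74 (SE 0.27, adjusted p = 0.000154) on fragments.

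The +122.5 kb region lies in an intron of Gm12065, 26.4 kb past the gene end. It had 67 and 46 fragments untreated, 31 and 33 after 30 min, 17 and 15 after 1 h, and 15 and 14 after 2 h. It was the only member called on ranks at 1 h (shift −1.5, SE 0.26, limma, adjusted p = 0.00684), where 2.51% of all tested regions were lower, and it was called again at 2 h (shift −1.54, SE 0.26, adjusted p = 0.00411). On fragments the shift was −1.98 at 1 h and −2.12 at 2 h (limma, adjusted p = 0.000358 and 0.000152). Its mean level over the library background, which is not centred, was 3.69-fold lower at 1 h and 3.94-fold lower at 2 h than at 0 h. The summits of its peaks differed by up to 325 bp between libraries, and the cause was not tested.

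The remaining downstream calls passed on fragments only. The +165.1 kb region, the strongest member by percentile at 0 h (96.4 and 92.0), had 61 and 36 fragments untreated, 40 and 35 after 30 min, 24 and 28 after 1 h, and 25 and 16 after 2 h. The +107.0 kb region, the closest to the gene end, had 36 and 24, then 25 and 28, then 17 and 9, and at 2 h 16 and 10. The +180.5 kb region had 59 and 45, then 28 and 24, then 15 and 17, and at 2 h 16 and 22. Their shifts on fragments at 2 h were −1.41, −1.4 and −1.64 (limma, adjusted p = 0.00233, 0.00571 and 0.00124), and on ranks −1.27, −1.39 and −0.58 (adjusted p = 0.0222, 0.0208 and 0.255). In each of the 3 both 2 h libraries lay below both 0 h libraries on fragments over background.

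Counted this way over the locus, both 2 h libraries lay below both 0 h libraries at 8 of the 14 Bcl11a regions and above them at 2, where the shares over all tested regions were 24.2% below and 42.8% above. On fragments all 6 downstream regions also had a shift below 0 at 30 min and at 1 h. At 1 h 5 of the 14 regions were lower on fragments (6.63% of all tested regions), and 1 on ranks. At 30 min limma called 0 of the 14 on either scale, where 0.0% of all tested regions were called lower on ranks and 1.3% on fragments. At an unadjusted p under 0.05, 3 of the 14 were lower on ranks (9.94% of all tested regions) and 5 on fragments (11.8%).

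**Figure D4:**
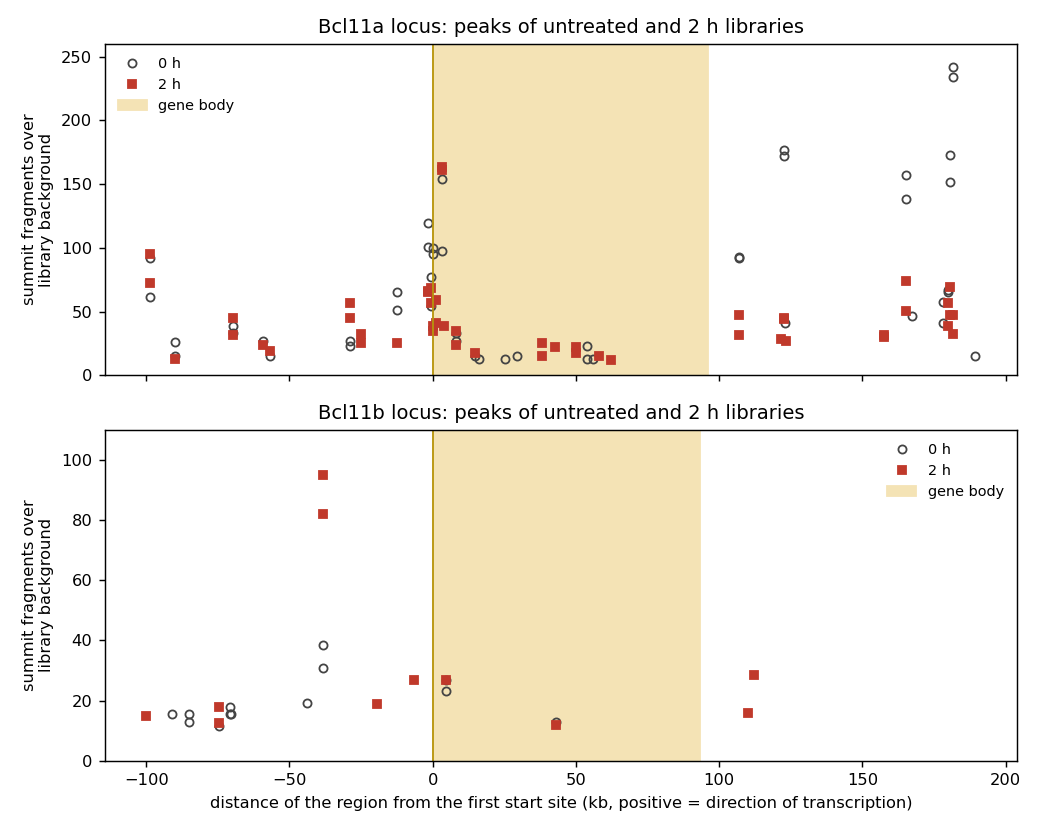
Summit fragments over library background (y axis) against distance from the first start site in kb (x axis, positive in the direction of transcription) for every peak of the 0 h libraries (open circles) and the 2 h libraries (red squares) at Bcl11a (top) and Bcl11b (bottom); the shaded band is the gene body, and each library gives 1 point per peak. Past the Bcl11a gene end the open circles reach 242.3 and the 2 h squares at the same regions lie below them, and at Bcl11b the tallest points are the 2 h squares at −38.1 kb, at 95.0 and 82.0.

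The local background that the caller used fell with these regions. It comes from reads of the same library, with no control library, so it is not a separate measure of the fall. It was 10.92 ± 0.31 times the library background (SD, n = 2) at the untreated +181.8 kb region, 5.63 ± 0.35 after 30 min, 3.62 ± 0.15 after 1 h and 3.24 ± 0.03 after 2 h. At the +122.5 kb region it was 6.59 ± 0.49 at 0 h and 2.46 ± 0.23 at 2 h, and at the start site 9.66 ± 0.34 and 6.94 ± 0.39. Peak fold, and so the rank, is taken over this background. The +179.9 kb region, less than 2 kb from the +181.8 kb one, had 26 and 17 fragments untreated and 13 and 18 after 2 h, and its shift was 0.73 on ranks and −0.64 on fragments (limma, adjusted p = 0.201 and 0.125).

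**Figure D5:**
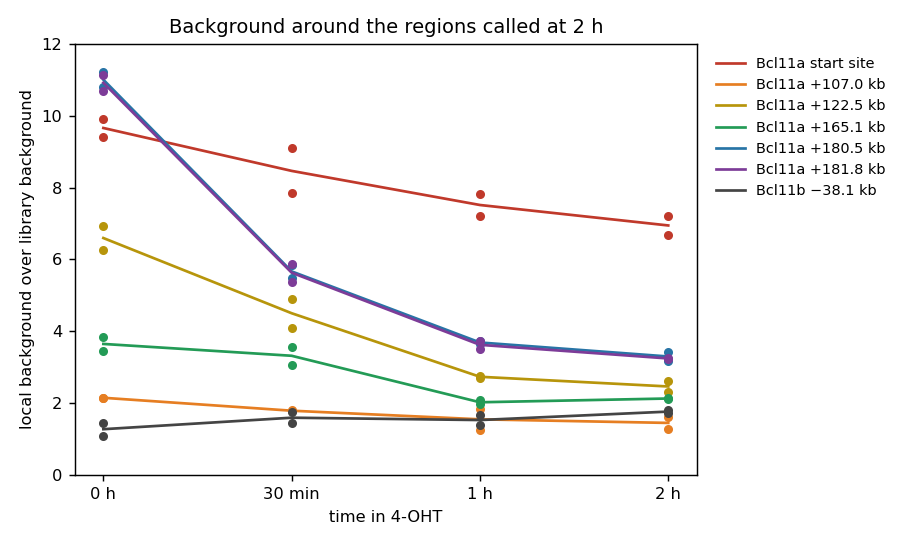
Local background of the caller over the background of the library (y axis, a ratio) at 0 h, 30 min, 1 h and 2 h in 4-OHT (x axis) around the 7 regions called at 2 h on fragments; points are single libraries and lines join the means of 2. The lines of the +180.5 and +181.8 kb regions coincide and fall from about 11.01 and 10.92 to 3.3 and 3.24, and the Bcl11b −38.1 kb line goes from 1.27 to 1.76.

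Away from the start site, none of the upstream regions with a peak in all 8 lists passed on ranks or on fragments at 2 h. The −12.5 kb region, which was not tested because the first 2 h list had no peak there, had 20 and 17 fragments untreated, 20 and 15 after 30 min, 8 and 13 after 1 h, and 8 in the second 2 h library. Its percentiles were 80.5 and 80.3 untreated, 83.2 and 74.0 after 30 min, 41.7 and 67.8 after 1 h, and 42.3 in that 2 h library. The −28.7 kb region, in a coding exon of A830031A19Rik, had 9 and 7 fragments untreated, 19 and 9 after 30 min, 15 and 18 after 1 h, and 15 and 18 after 2 h. It had the largest rise in rank of the Bcl11a regions at 1 h and at 2 h (shifts 0.95 and 0.86, limma, adjusted p = 0.117 and 0.132), and did not pass. The −98.5 kb region was the second strongest member by mean percentile at 0 h. It had 24 and 24 fragments untreated, 17 and 17 after 30 min, 21 and 19 after 1 h, and 32 and 23 after 2 h, and its groups overlapped at 2 h (shift on ranks 0.14, SE 0.29, adjusted p = 0.764). It lies near the edge of the window, at percentiles of 77.6 to 95.9, and the last region inside the other edge had 1 peak at percentile 21.2, while the nearest regions outside had a peak in 2 lists (22.9 and 31.8) and in 1 list (33.1).

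The Bcl11b region at −38.1 kb, chr12:108041657-108041855, lies between genes and was the strongest region of its locus in every library. It had 12 and 10 fragments untreated, 20 and 16 after 30 min, 20 and 16 after 1 h, and 32 and 26 after 2 h. The percentile rose from 54.6 and 59.0 at 0 h to 92.4 and 87.7 at 2 h, and was 73.0 to 77.8 in the libraries between. The level over the library background was 34.7 ± 5.4 (SD, n = 2) at 0 h and 88.5 ± 9.1 at 2 h, a ratio of 2.553, and the groups did not overlap.

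The shift of this region at 2 h was 1.3 (SE 0.26, limma, adjusted p = 0.00844) on ranks and 1.21 (SE 0.2, adjusted p = 0.00165) on fragments. At 30 min and 1 h it was 0.51 and 0.51 on ranks and did not pass (adjusted p = 0.32 and 0.216). On ranks the call was lost without any 1 of the 8 libraries (adjusted p from 0.0128 to 0.06). On fragments it was lost without a library of 0 h or 2 h (adjusted p from 0.0107 to 0.0151), except the second 0 h library. Beside the window, the nearest region on the left had 1 peak at percentile 10.6, and the nearest on the right had a peak in all 8 lists, at percentiles of 65.1 to 95.6, and was left out because it lies 117958 bp from the gene.

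The start-site region of Bcl11a at +3.1 kb was compared with those of 10080 other protein-coding genes by the root mean square distance of their percentiles over the 8 libraries. The closest were Nrtn, a neurotrophic factor of the GDNF family, at 2.9 percentile points, S100a6, a calcium-binding protein, at 3.7, and Nrarp, a target and attenuator of Notch signalling, at 4.13. Sgpl1, the lyase of sphingosine-1-phosphate, followed at 4.36 and Ankrd9 at 4.52. The percentile of Nrtn went from 58.8 and 76.1 at 0 h to 87.7 and 88.2 at 2 h. Bcl11b had no start-site region to compare.

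The genes of the complexes that BCL11 proteins join were read at their strongest start-site region. Of all tested regions at 2 h, 4.71% were called lower and 2.28% higher on ranks, and 9.37% and 5.43% on fragments. At an unadjusted p under 0.05 the shares were 17.4% lower and 17.1% higher on ranks, and 20.4% in each direction on fragments. The counts of each list are to be read against these shares. Of 15 NuRD subunits, 12 had such a region in all 8 lists, and at 2 h 1 was higher and 0 were lower on either scale. At an unadjusted p under 0.05, 0 were lower and 1 higher on ranks, and 1 lower and 3 higher on fragments, and the median shift on ranks was −0.07, beside 0.06 over all tested regions. The higher one was Mta3, a NuRD subunit known from germinal centre B cells, whose mean percentile went from 43.7 at 0 h to 90.7 at 2 h (shift 1.74, SE 0.25, limma, adjusted p = 0.0023). Of 21 BAF subunits 18 were tested and none passed on ranks or on fragments, with 3 lower and 0 higher on ranks, and 6 lower and 0 higher on fragments, at an unadjusted p under 0.05 and a median shift of −0.32 on ranks. Of 9 other zinc finger factors with a NuRD-binding motif, 7 had no start-site peak in any list, among them Ikzf1, Ikzf2 and Ikzf3. Zfpm1, the one that was tested, had a shift of 0.21 on ranks (SE 0.25). The paper reports IKZF3 as an abundant partner of Ikaros in B3 cells. A missing start-site peak thus does not show that a gene is silent.

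Genes linked to the roles of both factors were read the same way, against the same shares of all tested regions. Of 11 early lymphoid genes 9 were tested, and 1 was higher at 2 h and 0 were lower on either scale. At an unadjusted p under 0.05, 2 were lower and 1 higher on ranks, and 3 lower and 1 higher on fragments. Their median shift on ranks was −0.32. The higher gene was Rag2, part of the V(D)J recombinase, whose mean percentile was 61.4 at 30 min, 82.4 at 1 h and 77.0 at 2 h (shift 1.79, SE 0.29, limma, adjusted p = 0.0034). Of 14 T-lineage genes 9 were tested and none passed on either scale, with 2 lower and 2 higher on ranks, and 3 lower and 1 higher on fragments, at an unadjusted p under 0.05. Their median shift was 0.2 on ranks. Nearest to the threshold were Notch1 and Runx3. Notch1, the receptor that starts T cell commitment, had a mean percentile of 34.2 at 0 h and 81.4 at 2 h (shift on ranks 1.49, SE 0.32, limma, adjusted p = 0.0115). Runx3, a transcription factor of CD8 T cells, had a mean percentile of 98.3 at 0 h and 89.4 at 2 h (shift on fragments −1.07, SE 0.25, limma, adjusted p = 0.0101). Among the B lineage markers Igll1, which encodes the lambda5 part of the pre-B cell receptor, was lower on fragments (shift −2.31, SE 0.22, adjusted p = 0.000133) and not on ranks (shift −0.97, SE 0.29, adjusted p = 0.0404).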

How the data were processed

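ATAC-seq peaks were analysed in 8 libraries of B3 cells. The authors aligned reads with BWA, kept short, nucleosome-free fragments and called peaks in each library alone with MACS2 (version 2.1.2 in the submitters' processing notes), with no control library. The deposited lists give per peak a display score, the fold of the summit over the local background (a ratio), −log10 p-value and −log10 q-value, and a summit offset. The study's methods name a human assembly, but all peaks lay inside the chromosomes of GRCm38, the build of the notes. Genes followed GENCODE vM21.

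Fold and −log10 p-value together determine how many fragments lay at each summit and over what local background, under the caller's Poisson model, and this held for 100.0% of peaks within a tolerance of 0.002. Where a region held several peaks of a list, that of highest fold was used. Those regions with peaks throughout the lists were fitted with limma 3.58.1 (R 4.3.3), 4 time points in 1 model, no block. Both steps were tested on simulated data. The lists hold no read counts, so no count model was used. Some sequences and genes are not reported here.

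The members, gene lists and tests were chosen with earlier results of these data known. Named regions were those within 1 kb of a start site, those called at 2 h, the 3 strongest at 0 h, lost or gained in each locus, and those with the largest shifts. Regions called on fragments only, the regions between them, the −12.5 kb region, Notch1 and Runx3 were added after their values were seen.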

Additional observations from a re-analysis of the deposited data

How the results depend on the processing

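The Bcl11a count of 3 regions lower in rank was 2 when regions were ranked among all peaks or needed a peak in 2 lists, and stayed at 3 by −log10 p-value, with the 0 h and 2 h libraries alone and with the replicate block. It was 6 on fragments (centred, not centred, or with the block), 7 on fragments with mean trend and robust prior, 5 with that prior on ranks, 5 at adjusted p under 0.05 and 1 in the window of 20 kb; leaving out 1 library gave 0 to 3 on ranks and 4 to 6 on fragments. The Bcl11b count of 1 region higher was 0 with the replicate block (adjusted p = 0.0129), the 0 h and 2 h libraries alone, regions in 2 lists or the window of 20 kb, 0 in each fit on ranks without 1 library and 0 to 1 on fragments. No Bcl11a region was higher and no Bcl11b region lower in any setting. The difference between the first and second library of a time point correlated at 0.017 to 0.04 between time points across regions. These differences were taken on ranks, which remove differences between whole libraries, so the correlations do not cover depth. At every time point the first library had more peaks and a higher background than the second. Apart from the Bcl11b call on ranks, the block changed no call. The +3.1 kb start-site shift was 0.34 to 1.07 on ranks and 0.0 to 0.51 on fragments without 1 library and passed in none of its 27 settings. No value exists for a Bcl11b start-site shift, since no region was found.

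Counts of lost and gained regions at 2 h moved too. Among peaks whose −log10 q was 5 or more, Bcl11a lost 1 and gained 2 and Bcl11b lost 0; in the window of 20 kb Bcl11a lost 1 and gained 3 and Bcl11b lost 0; with lists of equal length Bcl11a gained 2. Without 1 library Bcl11a lost 2 to 8 (8 without the second 0 h library) and gained 5 to 9, and Bcl11b lost 2 to 4 and gained 0 to 3. Shifts of regions without a call that changed sign were 0.05 (−69.6 kb) and 0.09 (+8.3 kb) among all peaks, −0.01 (−98.5 kb), −0.19 (−0.5 kb) and −0.64 (+179.9 kb) on centred fragments with or without the block or the robust prior, and 0.06 (−69.6 kb), −0.05 (−0.5 kb) and −0.5 (+179.9 kb) on fragments not centred. Without 1 library these ran from −0.16 to 0.45 (−98.5 kb), −0.41 to 0.15 (−69.6 kb), −0.19 to 0.64 (−0.5 kb), −0.42 to 0.21 (+8.3 kb) and 0.28 to 1.17 (+179.9 kb) on ranks, and −0.22 to 0.21, −0.28 to 0.12, −0.38 to −0.01 and −0.53 to 0.12 on fragments, where +179.9 kb ran from −0.97 to −0.31. The uncentred, block, prior and left-out fits on fragments were chosen after seeing the data. The cause of these moves was not tested.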
